A study of Mus musculus with 4 samples.

Results

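Transcripts of 8 genes that encode coreceptors and inhibitory receptors of B cells were measured in early B cells from ADAR1 knockout and wild type mice, as the labels call them. The genes were Cd81, Cd22, Cd72, Siglecg, Fcrla, Fcgr2b, Btla and Lair1, taken by symbol out of 55573 mouse Ensembl gene identifiers, and each matched 1 identifier. They are called receptor genes here for short, although the products of Cd81 and Fcrla are not inhibitory receptors. The samples were 2 libraries labelled ADAR1 KO (KO 1, KO 2) and 2 wild type libraries (WT 1, WT 2). All 4 came from B cells sorted from bone marrow of C57BL/6 mice aged 8 to 12 weeks, in the gate labelled Fr.C+C', a stage of the Hardy scheme at the passage between pro-B and pre-B cells. ADAR1, the product of Adar, is an enzyme that edits adenosines of double-stranded RNA into inosines. The allele, any Cre driver and whether the libraries come from separate mice were not given in the sources used here. The p-values then reflect only how far the 4 libraries spread, which can be technical in origin.

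A B cell reads antigen through its immunoglobulin receptor, and the strength of that signal is set by other membrane proteins beside it. The coreceptor complex, which holds the complement receptor CD21 and the tetraspanin CD81, strengthens it. Inhibitory receptors weaken it through the immunoreceptor tyrosine-based inhibitory motif (ITIM), a short cytoplasmic stretch whose tyrosine, once phosphorylated by kinases such as LYN, recruits the phosphatases SHP-1 (Ptpn6), SHP-2 (Ptpn11) or SHIP1 (Inpp5d). Most of these receptors are best known from mature B cells, and several are already transcribed in pro-B and pre-B cells.

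The ITIM is what joins the inhibitory receptors, so the stretches that encode it are shown first. The motif was searched in 1 principal coding sequence of each gene in GENCODE M21 (build GRCm38) as 6 codons, the first for isoleucine, valine, leucine or serine, the third for tyrosine and the sixth for isoleucine, leucine or valine. Matches were kept on the cytoplasmic side of the membrane span, which was placed by a hydropathy window of 19 residues. By this search 6 of the 8 genes held 13 such stretches, all listed here 5′ to 3′ with the tyrosine codon in capitals.
Cd22, first: gttagtTATgccatcttg
Cd22, second: gtcactTACtcggtgata
Cd22, next: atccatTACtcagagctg
Cd22, last: gtagacTATgtgaccctc
Cd72, first: atcacgTATgcagacctg
Cd72, second: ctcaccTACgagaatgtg
Siglecg, first: ctggacTACatcaatgtg
Siglecg, second: ctccacTATgctgctctc
Siglecg, last: tctgatTACacagaggtc
Fcgr2b: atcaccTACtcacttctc
Btla: attgttTATgcttctttg
Lair1, first: gtgacgTATatccagctg
Lair1, second: agcacaTATgcagccatc
Cd81 and Fcrla had no match that was kept. In Cd81 the part searched lay beyond the last hydrophobic stretch and held 4 residues, in which a motif of 6 codons cannot fit. Fcrla had 1 hydrophobic stretch. The 9 residues recorded beside it can lie before or beyond it, and if before, no part of Fcrla was searched. Nothing is concluded from the lack of a match in either gene. Each had 1 match elsewhere in its protein. Such a pattern is common when position is ignored: 48.9% of 21542 coding sequences searched held at least 1 match somewhere, so a match describes the letters and is no proof of a working motif.

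The libraries held between 15122863 and 16416217 fragments, as recovered from the steps in the FPKM values, which are fragments scaled to exon length and to library size. Adar stood at 15.19 and 16.79 FPKM in the KO libraries, against 15.04 and 14.62 FPKM in the WT libraries (log2 change 0.10 ± 0.14 SE, adjusted p = 0.721 in limma). This level sums all exons of Adar and would miss a deletion of part of them, so the label is not checked by it. Transcripts typical of early B cells were present in every library, although the surface markers that define the gate were not checked: Vpreb1 at 155.96 FPKM or more and Dntt at 103.62 FPKM or more. These were the 2 of 20 listed B-lineage genes with a positive log2 change, and the other 18 were negative. Neutrophil transcripts were present too, and more so in the KO libraries. The 16 listed neutrophil genes, none of them at 0, held 3.60% and 7.07% of fragments in KO 1 and KO 2, against 2.64% and 2.49% in WT 1 and WT 2. The 20 listed B-lineage genes, which include none of the 8, held 0.692% and 0.357% in KO 1 and KO 2, against 0.726% and 0.791% in WT 1 and WT 2. KO 2 thus stood apart from the other 3 libraries in both lists.

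Of the 8 receptor genes, 6 were lower in both KO libraries than in either WT library: Btla, Cd72, Cd22, Fcrla, Siglecg and Cd81. By ratio of the means, the WT level was 3.38 times the KO level for Btla, 2.10 times for Cd72, 1.92 times for Cd22, 1.81 times for Fcrla, 1.76 times for Siglecg and 1.22 times for Cd81. Lair1 was higher in both KO libraries than in either WT library, with a KO mean 1.59 times the WT mean. Fcgr2b lay below the WT libraries in KO 1 and above them in KO 2. None of the 8 passed the test, which was limma on log2(FPKM + 1) with Benjamini-Hochberg adjustment over 13281 genes and a threshold of 0.05. At that threshold 0.203% of all genes tested were called (27 genes, all lower), and 12.5% had an unadjusted p under 0.05. Among the 8, 3 had an unadjusted p under 0.05 (Btla, Siglecg and Cd72), all lower, against 6.02% of all genes in that direction, and 0 were higher, against 6.45%. Both KO libraries lay below both WT libraries for 6 of 8 receptor genes, against 31.7% of all genes, and above them for 1 of 8, against 19.7%. The log2 change was negative for 6 of 8, against 61.7% of all genes, with a median of -0.91 over the 8 genes and -0.09 over all genes tested. A fall was not particular to the receptor genes. Of the 20 listed B-lineage genes 18 were negative, with a median log2 change of -0.52. Both KO libraries lay below both WT libraries for 10 of them and above for 0, and 2 were lower at an unadjusted p under 0.05 (limma). In sorted cells taken in bulk, fewer cells of a type and less RNA per cell cannot be told apart.

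**Figure D1:**
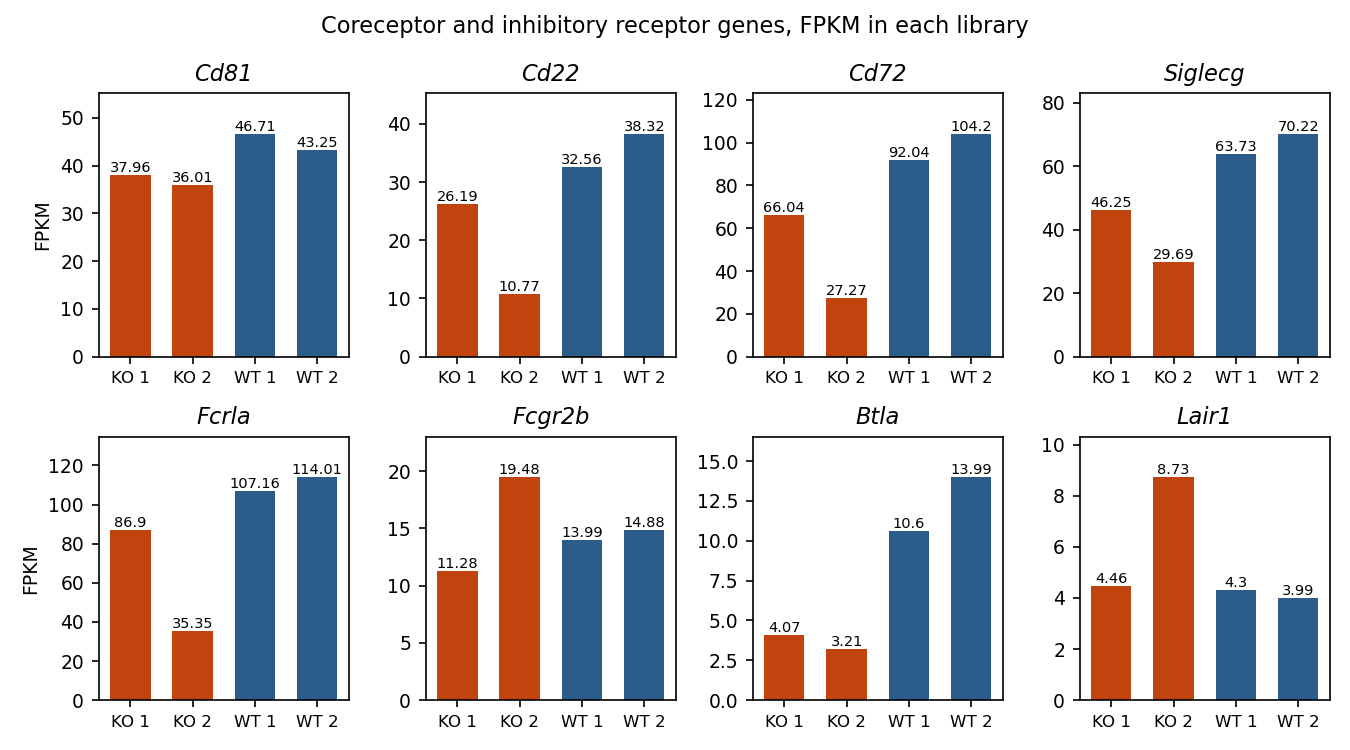
Expression of the 8 receptor genes in FPKM (y axes, from 0, a separate scale for each gene) in each library (x axes; KO libraries orange, WT libraries blue). Both orange bars are below both blue bars for Cd81, Cd22, Cd72, Siglecg, Fcrla and Btla, and KO 2 has the highest bar for Fcgr2b (19.48 FPKM) and Lair1 (8.73 FPKM).

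The levels, which FPKM gives per exon length, had the same order in both WT libraries. Fcrla was highest at 110.6 ± 4.84 FPKM (SD, n = 2), followed by Cd72 at 98.1 ± 8.60, Siglecg at 67.0 ± 4.59, Cd81 at 45.0 ± 2.45, Cd22 at 35.4 ± 4.07, Fcgr2b at 14.4 ± 0.629, Btla at 12.3 ± 2.40 and Lair1 at 4.15 ± 0.219 FPKM. Fcgr2b and Btla were the one pair of neighbours whose WT ranges met. KO 1 kept this order except that Lair1 (4.46 FPKM) came above Btla (4.07 FPKM). In KO 2 the order was another one: Cd81 came first at 36.01 FPKM, with Fcrla at 35.35, Siglecg at 29.69, Cd72 at 27.27, Fcgr2b at 19.48, Cd22 at 10.77, Lair1 at 8.73 and Btla at 3.21 FPKM. Between the KO libraries the ranges of neighbouring genes overlapped for Fcrla with Cd72, Cd72 with Siglecg, Siglecg with Cd81 and Cd22 with Fcgr2b. The summed level of the 8 genes was 283 and 171 FPKM in KO 1 and KO 2, against 371 and 403 FPKM in WT 1 and WT 2.

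Cd81 encodes the tetraspanin of the coreceptor complex (ENSMUSG00000037706, GRCm38 chromosome 7, 143052739 to 143067934). It stood at 37.96 and 36.01 FPKM in the KO libraries, against 46.71 and 43.25 FPKM in the WT libraries. The KO libraries were close to each other and both below the WT libraries. The log2 change was -0.28 ± 0.14 (SE; 95% interval -0.63 to 0.08), with adjusted p = 0.458 by limma. The B-lineage list had another pattern, its median lying at -0.08 in KO 1 and at -0.95 in KO 2 relative to the WT mean, while Cd81 was at -0.24 in KO 1 and -0.31 in KO 2. With each library scaled to the B-lineage list, the sign for Cd81 turned to 0.32. That scaling moves the median of all genes from -0.09 to 0.50, and Cd81 lay 0.18 below the median under either setting.

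Cr2, which encodes CD21, a partner of CD81 in the complex, and is a marker of mature B cells, was below the filter of a mean of 1 FPKM at 0.19 and 0.07 FPKM in the KO libraries, against 0.66 and 0.74 FPKM in the WT libraries. Of 13 listed partners and tetraspanins 11 were tested and 0 passed, with 2 at an unadjusted p under 0.05, both higher: the interferon-inducible membrane protein genes Ifitm1 and Ifitm3, named here after their values were seen. Ifitm1 was at 38.72 and 79.54 FPKM in the KO libraries, against 10.82 and 15.53 FPKM in the WT libraries (log2 change 2.02 ± 0.38 SE, adjusted p = 0.262, limma). Ifitm3 was at 220.02 and 418.01 FPKM in KO, against 143.09 and 118.32 FPKM in WT (1.21 ± 0.34 SE, adjusted p = 0.345, limma). The list median was 0.08, against -0.09 for all genes tested. The tetraspanin gene Cd9 was at 45.22 and 89.09 FPKM in the KO libraries, against 38.64 and 35.16 FPKM in the WT libraries. Cd37 was at 119.48 and 94.89 FPKM in KO, against 112.41 and 114.79 FPKM in WT. Cd53 was at 122.35 and 165.54 FPKM in KO, against 132.3 and 135.95 FPKM in WT. Ifitm1, Ifitm3, Cd9 and Cd53 were highest in KO 2, the library with most neutrophil transcripts. The part of those cells in these values was not tested.

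Cd22 and Siglecg encode sialic acid-binding lectins that restrain the B cell receptor, CD22 through SHP-1 and Siglec-G chiefly in B-1 cells. Cd22 (ENSMUSG00000030577, GRCm38 chromosome 7, 30865402 to 30880342) was at 26.19 and 10.77 FPKM in the KO libraries, against 32.56 and 38.32 FPKM in the WT libraries. Siglecg (ENSMUSG00000030468, chromosome 7, 43408204 to 43418358) was at 46.25 and 29.69 FPKM in the KO libraries, against 63.73 and 70.22 FPKM in the WT libraries. For both genes KO 2 was the lowest library, KO 1 the next, and the groups did not overlap. The log2 change was -1.02 ± 0.41 for Cd22 (SE; 95% interval -2.06 to 0.02, adjusted p = 0.408, limma) and -0.83 ± 0.24 for Siglecg (-1.45 to -0.22, adjusted p = 0.347, limma). The Cd22 value rests on 2092 and 821 fragments in the KO libraries, against 2594 and 3172 in the WT libraries.

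St6gal1, the sialyltransferase that makes the glycan CD22 binds, was at 26.07 and 12.79 FPKM in the KO libraries, against 32.59 and 38.91 FPKM in the WT libraries. Its libraries were in the same order as those of Cd22, and its log2 change of -0.92 ± 0.34 (SE) did not pass either (adjusted p = 0.388, limma). Cmah, the hydroxylase that makes the form of sialic acid preferred by mouse CD22, was at 8.68 and 10.22 FPKM in the KO libraries, against 6.92 and 8.67 FPKM in the WT libraries. KO 1 and WT 2 were almost equal for Cmah. Other receptors of the same lectin family with roles in myeloid cells lay the other way. Cd33 was at 23.4 and 36.5 FPKM in the KO libraries, against 17.22 and 18.15 FPKM in the WT libraries, with an adjusted p of 0.374. Siglece was at 32.03 and 62.44 FPKM in KO, against 20.23 and 18.81 FPKM in WT (limma adjusted p = 0.345).

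Cd72 encodes a C-type lectin-like receptor that binds CD100 and recruits SHP-1 (ENSMUSG00000028459, GRCm38 chromosome 4, 43446462 to 43454628). It was at 66.04 and 27.27 FPKM in the KO libraries, against 92.04 and 104.2 FPKM in the WT libraries. The groups did not overlap, and KO 2 was the lowest. The log2 change was -1.18 ± 0.42 (SE; 95% interval -2.25 to -0.12, adjusted p = 0.380, limma). Of the exon bases of Cd72, 41.6% overlap exons of Tesk1 on the other strand, and whether counting used strand was not given in the sources used here. Tesk1 itself was at 5.88 and 2.59 FPKM in the KO libraries, against 4.15 and 4.77 FPKM in the WT libraries, far below Cd72 per exon length. Sema4d, which encodes the ligand CD100, was at 26.48 and 26.86 FPKM in the KO libraries, against 22.37 and 21.9 FPKM in the WT libraries (log2 change 0.26 ± 0.13 SE, adjusted p = 0.458, limma).

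Fcgr2b and Fcrla lie in one cluster of Fc receptor genes on chromosome 1. Fcgr2b encodes FcγRIIB, the inhibitory IgG receptor that signals through SHIP1 and is made by B cells and myeloid cells alike (ENSMUSG00000026656, 170958617 to 170976547). It was at 11.28 and 19.48 FPKM in the KO libraries, against 13.99 and 14.88 FPKM in the WT libraries. The KO libraries lay on either side of the WT libraries, and the log2 change was 0.04 ± 0.27 (SE; 95% interval -0.64 to 0.72, adjusted p = 0.946, limma). Its sign was set by single libraries: it was -0.33 without KO 2 and -0.0019 without WT 1.

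Fcrla encodes an Fc receptor-like protein that stays inside B cells, in the endoplasmic reticulum, and binds immunoglobulin there (ENSMUSG00000038421, 170917576 to 170927583). It was at 86.9 and 35.35 FPKM in the KO libraries, against 107.16 and 114.01 FPKM in the WT libraries. KO 2 was the lowest by a wide margin, and KO 1 was also below both WT libraries. The log2 change of -0.98 ± 0.42 (SE; 95% interval -2.06 to 0.10) did not pass (adjusted p = 0.433, limma). In KO 2 these neighbouring genes thus stood on opposite sides of the WT mean, Fcrla at -1.62 and Fcgr2b at 0.41 on the log2(FPKM + 1) scale.

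Activating Fc receptor genes typical of myeloid cells were highest in KO 2. Fcgr3 was at 54.84 and 107.57 FPKM in the KO libraries, against 42.18 and 38.88 FPKM in the WT libraries. Fcgr4 was at 17.24 and 37.06 FPKM in KO, against 15.27 and 15.57 FPKM in WT. Fcer1g, their signalling chain encoded elsewhere, was at 168.01 and 291.66 FPKM in KO, against 141.62 and 114.02 FPKM in WT. Fcrlb, the closest relative of Fcrla, was below the filter at 1.62 and 0.15 FPKM in the KO libraries, against 0.64 and 0.52 FPKM in the WT libraries. Of 50-base words in Fcgr2b transcripts, 6.95% occur on either strand in transcripts of other genes, first of all Fcgr3 and then Gm38204, an antisense transcript. How reads in these words were assigned is not known, as the read length and aligner were not given. Of 12 listed Fc receptors and relatives 8 were tested, and 1 fell: Fcer2a, the IgE receptor CD23 of mature B cells, at 0.22 and 0.17 FPKM in the KO libraries, against 4.03 and 3.82 FPKM in the WT libraries (log2 change -2.04 ± 0.19 SE, adjusted p = 0.0476, limma). That call was lost in 10 of the 12 alternatives that tested it, as given with the other settings. Fcmr, the IgM receptor, was at 2.8 and 0.3 FPKM in the KO libraries, against 16.66 and 19.02 FPKM in the WT libraries, and did not pass (adjusted p = 0.203, limma). It passed under 3 of 13 alternatives, among them B-lineage scaling (0.000124) and the fit without KO 1 (0.0426).

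Btla encodes the B and T lymphocyte attenuator, an inhibitory receptor whose ligand is HVEM (ENSMUSG00000052013, GRCm38 chromosome 16, 45224315 to 45257670). It was at 4.07 and 3.21 FPKM in the KO libraries, against 10.6 and 13.99 FPKM in the WT libraries. Means were 3.64 ± 0.608 FPKM in KO and 12.3 ± 2.40 FPKM in WT (SD, n = 2 each), resting on 219 and 165 fragments in KO against 569 and 780 in WT. KO 1 and KO 2 were close to each other and the groups lay far apart. The log2 change was -1.51 ± 0.20 (SE; 95% interval -2.02 to -1.01), with an unadjusted p of 0.000539 and an adjusted p of 0.107 in limma. Btla thus had the smallest p of the 8 genes. Its log2 change ran from -1.75 to -0.92 over the 13 alternatives, many of which could not have turned its sign. Tnfrsf14, which encodes HVEM, was at 23.31 and 29.15 FPKM in the KO libraries, against 27.28 and 24.99 FPKM in the WT libraries. Its KO and WT ranges overlapped (log2 change -0.0020 ± 0.17 SE, 95% interval -0.43 to 0.42).

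Lair1 encodes the leukocyte-associated receptor for collagen, which is found on most leukocytes (ENSMUSG00000055541, GRCm38 chromosome 7, 4003402 to 4063204). It was at 4.46 and 8.73 FPKM in the KO libraries, against 4.3 and 3.99 FPKM in the WT libraries. KO 1 was close to WT 1, and the difference rested on KO 2. The log2 change was 0.50 ± 0.30 (SE; 95% interval -0.26 to 1.26, adjusted p = 0.50, limma), and 0.09 without KO 2. Neutrophil genes were 0.47 above the WT mean in KO 1 and 1.54 above it in KO 2 by their list median, with 16 of 16 positive. Their summed level was 36472 and 74288 FPKM in the KO libraries, against 27781 and 25962 FPKM in the WT libraries. The part of such cells in the Lair1 and Fcgr2b values was not tested.

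**Figure D2:**
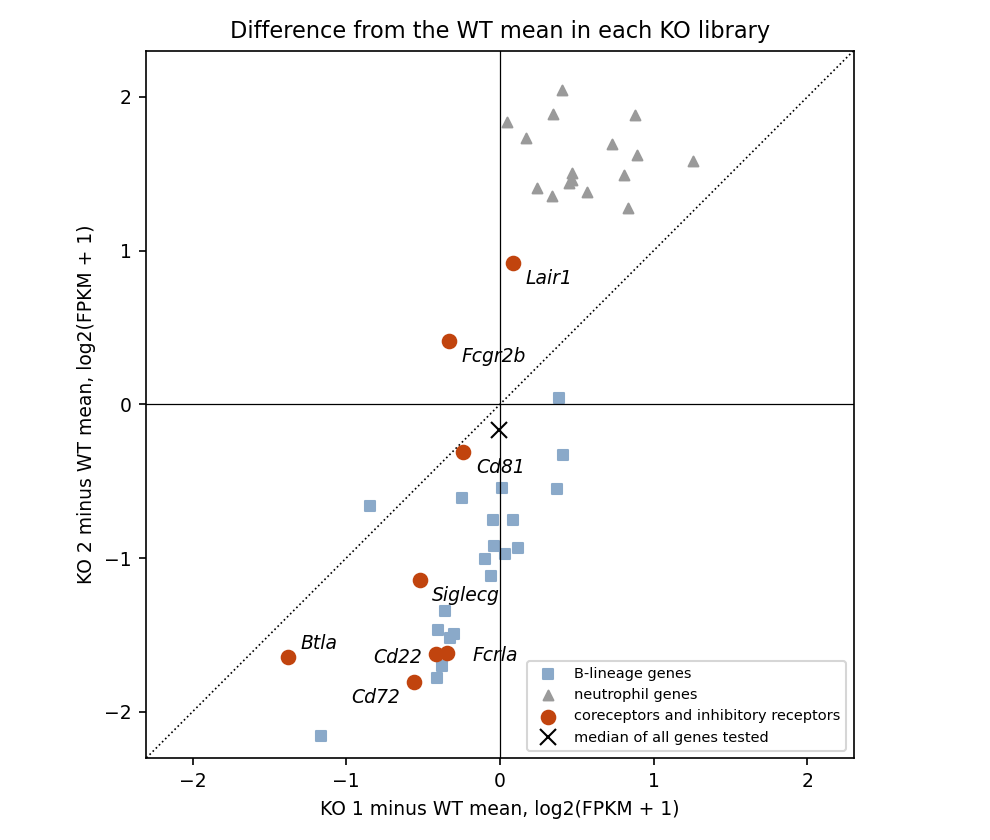
Difference of KO 1 (x axis) and of KO 2 (y axis) from the WT mean, in log2(FPKM + 1), for the 8 receptor genes (circles), the 20 B-lineage genes (squares) and the 16 neutrophil genes (triangles). The cross is the median of all genes tested and the dotted line marks equal differences. Btla and Cd81 lie near the dotted line, Cd22, Fcrla and Cd72 lie among the lower B-lineage genes, and Lair1 and Fcgr2b lie above 0 in KO 2.

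The 8 genes differed in how close the KO libraries were to each other. Relative to the WT mean, Btla was at -1.38 in KO 1 and -1.65 in KO 2, and Cd81 at -0.24 and -0.31. Cd72 was at -0.56 in KO 1 and -1.81 in KO 2, Cd22 at -0.42 and -1.63, Fcrla at -0.34 and -1.62, and Siglecg at -0.52 and -1.15. For these last 4 genes the KO 2 difference was the larger one, as it was for the B-lineage list. The fits that leave out a KO library hold 1 KO library, which is assumed to vary as the WT pair does, so they compare that library with the WT libraries and have no replication in KO. The log2 changes of these fits equal the differences given above. Without KO 1 they were -1.81 for Cd72 and -1.65 for Btla, and without KO 2 they were -0.56 and -1.38. Without KO 2 the 6 lower genes remained lower, as they must where the groups do not overlap, and Fcgr2b turned to -0.33.

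**Figure D3:**
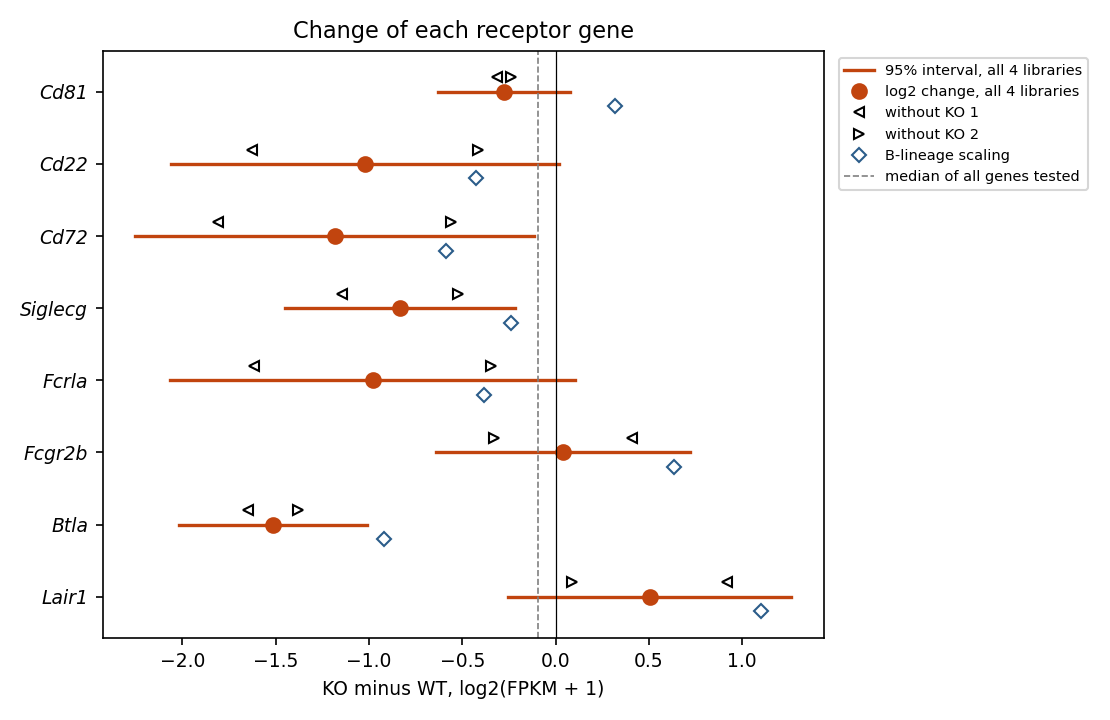
KO minus WT change of each receptor gene in log2(FPKM + 1) (x axis), with its 95% interval from limma on all 4 libraries (circles and bars), without KO 1 or KO 2 (open triangles), and with each library scaled to the B-lineage list (diamonds). The dashed line is the median of all genes tested. The plotted points of Btla lie between -1.65 and -0.92 and its interval runs from -2.02 to -1.01. Cd81 and Fcgr2b have points on both sides of 0.

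The enzymes and adaptors that act below the inhibitory receptors were tested as a list of 18, and 0 passed. At an unadjusted p under 0.05, 2 were higher and 0 lower, both of them adaptors, named here after their values were seen: Pag1 at 19.68 and 23.92 FPKM in KO, against 14.76 and 15.08 FPKM in WT, and Dok2 at 6.85 and 8.13 FPKM in KO, against 4.34 and 4.58 FPKM in WT. Of the list 10 were positive and 8 negative, with a median log2 change of 0.08 and a range from -0.48 to 0.63. Ptpn6 (SHP-1) was at 129.32 and 151.93 FPKM in the KO libraries, against 131.71 and 130.04 FPKM in the WT libraries. Ptpn11 (SHP-2) was at 22.84 and 23.02 FPKM in KO, against 22.06 and 21.33 FPKM in WT. Inpp5d (SHIP1) was at 55.22 and 44.88 FPKM in KO, against 46.26 and 54.33 FPKM in WT. Lyn, the kinase that phosphorylates ITIMs, was at 54.98 and 61.25 FPKM in the KO libraries, against 59.4 and 62.68 FPKM in the WT libraries. The 95% intervals of the log2 change were -0.33 to 0.52 for Ptpn6, -0.25 to 0.41 for Ptpn11, -0.46 to 0.44 for Inpp5d and -0.44 to 0.30 for Lyn. Csk, which restrains the Src family kinases, was at 99.86 and 67.81 FPKM in the KO libraries, against 104.13 and 104.63 FPKM in the WT libraries. Many of these genes are transcribed in myeloid cells as well, and the part of those cells in the values was not tested.

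Inhibitory receptors outside the 8 genes had a median of the opposite sign. Of 22 listed, 19 were tested, 0 passed and 15 were positive, with a median log2 change of 0.55 and 8 higher at an unadjusted p under 0.05. Pirb, the paired immunoglobulin-like receptor B that binds MHC class I and is made by B and myeloid cells, was at 40.04 and 60.13 FPKM in the KO libraries, against 23.38 and 22.56 FPKM in the WT libraries (log2 change 1.06 ± 0.22 SE, adjusted p = 0.293, limma). Pecam1, the adhesion receptor CD31, was at 14.57 and 9.74 FPKM in the KO libraries, against 15.5 and 18 FPKM in the WT libraries. Cd5, a marker of B-1 cells and T cells and a proposed ligand of CD72, was below the filter at 0.77 and 0.62 FPKM in the KO libraries, against 0.92 and 0.89 FPKM in the WT libraries. Relative to the WT mean, the median over this list was 0.31 for KO 1 and 0.98 for KO 2, beside 0.47 and 1.54 for the neutrophil genes, whose part in these values was not tested. Of 12 listed ligands and ligand-making enzymes 9 were tested, 0 passed and 7 were negative, with a median log2 change of -0.13 and 1 lower at an unadjusted p under 0.05.

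The other markers of cell types gave 2 calls. Of 10 plasma cell genes 9 were tested and Jchain, the joining chain of secreted antibody, fell, at 0.25 and 0.45 FPKM in the KO libraries, against 105.85 and 91.45 FPKM in the WT libraries (log2 change -6.21 ± 0.16 SE, adjusted p = 0.00135, limma). The call was lost with no filter (0.0612) and without KO 2 (0.0634). The plasma cell list had a median of -0.83, with 8 of 9 negative and 3 lower at an unadjusted p under 0.05. The list of 20 mature B cell genes, of which 18 were tested, holds the Fcer2a call given above, and had a median of -0.24 with 13 negative. At an unadjusted p under 0.05, 3 of its genes were lower and 1 was higher. Monocyte and macrophage genes had a median of -0.06, plasmacytoid dendritic cell genes 0.54, erythroid genes -0.84 and T and NK cell genes 0.19, with 0 calls in each by limma. At an unadjusted p under 0.05, 6 plasmacytoid dendritic cell genes were higher, 5 erythroid genes were lower, and 0 genes of the monocyte or the T and NK lists stood out either way.

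The genes whose values across the 4 libraries were most like those of Btla and Siglecg, the receptor genes with the smallest p, were looked up by Euclidean distance between log2(FPKM + 1) values less each gene's mean. Among 10985 genes compared, those nearest to Btla were the small RNA genes Mir7089, Mir7028 and Snord59a (distances 0.266, 0.349 and 0.354), all listed at 0 in both KO libraries and between 1.65 and 2.69 FPKM in the WT libraries. These genes are so short that the WT values stand for an estimated 2 or 3 fragments a library, and they passed the filter through the WT libraries alone, so their likeness to Btla rests on very few reads. Limited to protein-coding genes, a choice made after the values were seen, the nearest were Tnfrsf17, the plasma cell receptor BCMA, at a distance of 0.439, Srpk3 at 0.513 and H2-DMb2, part of MHC class II peptide loading, at 0.534. Tnfrsf17 was at 0 FPKM in both KO libraries, against 2.17 and 1.79 FPKM in the WT libraries. It too passed the filter through the WT libraries alone, so its likeness to Btla rests on values near the floor. Those nearest to Siglecg were H2-Ob, another MHC class II gene of B cells, at 0.0608, the interferon-inducible Ifi209 at 0.0923 and the importin gene Kpna2 at 0.118. H2-Ob was at 13.39 and 8.11 FPKM in the KO libraries, against 17.64 and 20.46 FPKM in the WT libraries.

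The promoters of Cd22 and Btla are shown because these genes differed in how the KO libraries compared, KO 2 being far lower than KO 1 for Cd22 and close to it for Btla. Each is the RefSeq window of GRCm38.p6 from 250 bases before to 50 bases after the annotated start, written 5′ to 3′ on the gene's strand. The palindrome of the B cell factor EBF1, TCCC and GGGA with 2 bases of any kind between them, was searched on both strands, as were GAGGAA, a core bound by PU.1, and 3 other motifs. The EBF1 letters, found in 0.904% of 32851 promoter windows, were present in 1 of the 8 genes, Cd22 (chr7:30878979-30879278, minus strand), where they are in capitals.
Cd22: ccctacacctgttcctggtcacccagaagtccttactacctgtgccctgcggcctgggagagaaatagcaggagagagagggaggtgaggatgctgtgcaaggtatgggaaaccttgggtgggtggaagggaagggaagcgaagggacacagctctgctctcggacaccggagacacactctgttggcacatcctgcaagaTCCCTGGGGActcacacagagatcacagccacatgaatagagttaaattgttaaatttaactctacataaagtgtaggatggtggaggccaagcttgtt
The GAGGAA core, found in 28.3% of windows, was present in 5 of the 8 genes: Fcrla, Cd72, Lair1, Siglecg and Btla. Cd72, Fcrla and Siglecg, grouped with Cd22 above by their KO libraries, thus held this core and not the EBF1 letters. In Btla (chr16:45224087-45224386, plus strand) the core lies as 2 adjoining copies, in capitals.
Btla: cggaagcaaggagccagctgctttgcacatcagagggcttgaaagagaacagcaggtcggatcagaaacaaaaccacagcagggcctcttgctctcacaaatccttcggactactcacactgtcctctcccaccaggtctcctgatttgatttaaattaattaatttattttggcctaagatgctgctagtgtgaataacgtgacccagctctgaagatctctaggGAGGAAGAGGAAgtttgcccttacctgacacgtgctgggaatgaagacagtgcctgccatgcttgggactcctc
The 8 genes have 9 windows, 2 of them of Siglecg, and a gene was counted where any window held the letters. The E-box letters CANNTG were in 8 of the 8 genes, in Siglecg in 1 of its 2 windows, and in 72.3% of all windows, the core of interferon response elements, GAAA repeated after 2 bases of any kind, was in Fcrla alone among the 8 and in 3.44% of windows, and the octamer ATGCAAAT was in none of the 8 and in 1.74% of windows. A match describes letters in the window and says nothing of binding in these cells.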

How the data were processed

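Each deposited file gives FPKM values of 1 library by Ensembl gene, per the file headers. The submitters' processing notes name the build mm9. The aligner, counting program, annotation, strandedness and read length were not given in the sources used here. A symbol was found for 55394 of 55573 identifiers. FPKM times the exon length of GENCODE M21 (GRCm38) gave whole fragments, within 0.15, for 99.4% to 99.6% of low values checked, where chance gives 30%. Depth and fragments come from these steps, and coordinates from that annotation.

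Because FPKM are not counts, limma (version 3.58.1, R 4.3.3) with a mean-variance trend was run on log2(FPKM + 1), without covariates, over 13281 genes whose KO or WT mean reached 1 FPKM, and checked on simulated data. The pseudocount understates changes of low genes. Log2 changes are KO minus WT. With 2 libraries a group, an exact permutation test cannot go below p = 0.333.

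The receptor genes and all lists were chosen with earlier results of these data known. Lists are described by counts and medians. Of the genes fixed by role, 1 is not reported here. Genes named are the 8 receptors, fixed partners, ligands, effectors and Fc receptors, listed genes that passed, and the 3 nearest profiles of 2 genes. Alternatives were another pseudocount, no filter or one of 5 FPKM, quantile normalization, median centring, B-lineage scaling, voom on estimated fragments, each library left out, and replicate blocks.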

Additional observations from a re-analysis of the deposited data

How the results depend on the processing

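With all 4 libraries, 27 genes were called (all lower) and 0 of the 8 receptor genes. Calls numbered 15 with a pseudocount of 0.1, 0 with no filter, 281 with B-lineage scaling (194 higher, 87 lower), 8 with voom on estimated fragments and 68 with the replicate block (7 higher, 61 lower). Leaving out 1 library gave from 0 (without KO 2) to 948 calls (563 higher, 385 lower, without KO 1), with 14 without WT 1. Each of these 4 fits holds 1 library in a group and so has no replication there. No label says that the numbers in the titles pair the libraries. The correlation of their deviations was -0.15, a single value that cannot settle whether they do. The crossed block was added after seeing the data: it called 213 genes (46 higher, 167 lower), 1 of them a receptor gene, Btla. No receptor gene was called with the replicate block or with voom. Receptor genes at an unadjusted p under 0.05 numbered 3 with all 4 libraries (12.5% of all genes), 5 with the replicate block (10.9%), 5 with voom (13.6%), 2 with no filter (8.47%), 1 with B-lineage scaling (Lair1, 12.6%), 1 without WT 1 (Btla, 4.38%), 1 without WT 2 (Btla, 5.12%) and 8 without KO 1 (40.3%).

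Cd72, Cd22, Fcrla, Siglecg and Btla were lower, and Lair1 higher, in all 13 alternatives. Many of these could not have turned the sign. A change of filter or an added block leaves the log2 change as it was. Where the KO and WT libraries do not overlap, leaving out 1 library cannot reverse it. Other signs turned. With B-lineage scaling, which moved the median of all genes to 0.50, the log2 change was 0.32 for Cd81, 0.50 for Cd37, 0.59 for Tnfrsf14, 0.59 for Inpp5d, 0.52 for Lyn, 0.26 for Csk and 0.14 for Pecam1. With quantile normalization it was 0.0519 for Tnfrsf14, 0.0611 for Inpp5d and 0.0224 for Lyn, and with median centring 0.0664 for Tnfrsf14 and 0.0586 for Inpp5d. With each library left out in turn it ranged from -0.33 (without KO 2) to 0.41 for Fcgr2b, with -0.0019 without WT 1, from -0.26 to 0.0723 for Cd37, from -0.13 to 0.30 for Cd53, from -0.16 to 0.15 for Tnfrsf14, from -0.0171 to 0.21 for Ptpn6, from -0.16 to 0.14 for Inpp5d and from -0.15 to 0.0054 for Lyn. Fcer2a kept its direction and its adjusted p ranged up to 0.306 (no filter). Jchain did not pass with no filter (0.0612) or without KO 2 (0.0634). The cause of these moves was not tested, except that fewer libraries or more genes enter some fits.

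The 8 genes rest on 165 to 5854 fragments a library. There are 2 libraries a group, and the SD across genes of the log2 difference was 0.487 between KO 1 and KO 2 and 0.322 between WT 1 and WT 2.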
